A study of Homo sapiens with 6 samples.

Results

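The genes described here encode proteins that hold apoptosis back: the anti-apoptotic BCL2 family (BCL2, BCL2L1, BCL2L2, MCL1 and BCL2A1), inhibitor of apoptosis proteins or IAPs (BIRC2, BIRC3, XIAP and BIRC5) and CFLAR, which encodes FLIP. They were listed by name, 10 in all, and 8 of them had a probe set of their own among the 18417 genes analysed. BCL2L2 shares its probe set with the readthrough gene BCL2L2-PABPN1, and no probe set carried the name BIRC3 in the annotation used here, so that these genes have no value. MDA-MB-231, a human breast cancer cell line of the triple negative class with mesenchymal features, was grown in DMEM with serum and left untreated (3 samples) or exposed to EC-70124 at 500 nM for 24 h (3 samples). EC-70124 is a multi-kinase inhibitor, a hybrid indolocarbazole made by combining biosynthesis genes of rebeccamycin and staurosporine. The labels name no vehicle for the untreated cells. Each sample was hybridised to 1 Affymetrix Human Gene ST array. The values are the authors' model-based intensities, 1 per probe set, on a linear scale that cannot be compared between probe sets.

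The mitochondrial pathway of apoptosis is governed by the BCL2 family. Anti-apoptotic members bind the pore formers BAX and BAK1 and the BH3-only proteins that activate them, and so keep cytochrome c inside mitochondria. IAPs carry BIR domains: XIAP blocks caspases directly, BIRC2 and BIRC3 are ubiquitin ligases of TNF receptor complexes, and BIRC5 (survivin) is also a subunit of the chromosomal passenger complex in mitosis. FLIP resembles caspase-8 without its protease activity and competes with it at death receptors. Transcription of several of these genes is known to respond to NF-kappa-B (BCL2A1, BCL2L1, BIRC3 and CFLAR) or to STAT3 (BCL2L1, MCL1 and BIRC5).

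The start regions of the members that fell, of a member that rose and of CFLAR, whose probe sets differed, are shown because the factors named above are read at promoters. RefSeq windows of GRCh38.p14, with 250 bases before and 50 bases after a transcription start, were found for 7 of the 10 members (14 windows). BCL2L2, MCL1 and BIRC5 had no entry. The BCL2A1 window is chr15:79971147-79971446 (minus strand), the first BCL2L1 window is chr20:31723914-31724213 (minus strand), the first BIRC2 window is chr11:102346964-102347263 (plus strand) and the first CFLAR window is chr2:201118466-201118765 (plus strand). Capitals mark any match, on either strand, to the NF-kappa-B consensus, a STAT-type palindrome (TTCNNNGAA), an AP-1 site (TGACTCA), the CCAAT box (CCAAT), the TATA box (TATAAA), the GC box (GGGCGG) or an E-box (CACGTG).
BCL2A1: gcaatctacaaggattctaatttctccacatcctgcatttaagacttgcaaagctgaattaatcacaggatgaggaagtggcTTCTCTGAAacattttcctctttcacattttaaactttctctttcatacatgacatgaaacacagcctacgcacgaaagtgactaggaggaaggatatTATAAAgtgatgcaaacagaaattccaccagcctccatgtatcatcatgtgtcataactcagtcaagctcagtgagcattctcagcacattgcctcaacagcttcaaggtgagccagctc
BCL2L1: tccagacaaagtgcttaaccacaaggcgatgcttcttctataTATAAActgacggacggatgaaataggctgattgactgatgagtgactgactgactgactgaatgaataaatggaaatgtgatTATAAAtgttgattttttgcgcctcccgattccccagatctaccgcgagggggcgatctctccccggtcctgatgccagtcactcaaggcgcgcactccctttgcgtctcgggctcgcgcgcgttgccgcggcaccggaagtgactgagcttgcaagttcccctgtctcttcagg
BIRC2: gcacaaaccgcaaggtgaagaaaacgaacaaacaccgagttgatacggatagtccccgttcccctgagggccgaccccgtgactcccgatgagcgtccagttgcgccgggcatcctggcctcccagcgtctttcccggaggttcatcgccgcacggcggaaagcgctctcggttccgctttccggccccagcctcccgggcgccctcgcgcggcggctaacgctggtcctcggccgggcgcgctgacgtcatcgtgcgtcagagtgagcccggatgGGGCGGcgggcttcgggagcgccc
CFLAR: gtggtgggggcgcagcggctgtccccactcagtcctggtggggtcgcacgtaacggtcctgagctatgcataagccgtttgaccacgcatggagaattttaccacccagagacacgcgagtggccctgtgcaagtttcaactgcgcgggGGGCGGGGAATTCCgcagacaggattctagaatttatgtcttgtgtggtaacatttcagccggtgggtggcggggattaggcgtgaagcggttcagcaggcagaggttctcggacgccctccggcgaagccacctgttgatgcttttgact
The BCL2A1 window held the STAT-type letters TTCTCTGAA from -168 to -160 relative to the start, a match to a pattern that 7.66% of all 35116 windows hold with any 3 bases at its centre, and a TATA box from -70 to -65 (11.5% of all windows). The first BCL2L1 window held TATA boxes at -208 and -125. The second, not printed here, held no TATA box and a GC box from -5 to 1. Which start these cells use was not tested. In the first CFLAR window the NF-kappa-B letters GGGGAATTCC, from -97 to -88, overlap a GC box that starts at -101. The NF-kappa-B consensus is in 11.3% of all windows. Among the 14 windows of the members it was matched in this one and in that of BIRC3, which held GGAAATCCCC from -199 to -190 and GGAGTTCCCC from -135 to -126 on the other strand. The first BIRC2 window held a GC box from 27 to 32 (45.0% of all windows), and the second held GC boxes that start at -134, 28 and 38. No window of a member held an AP-1 site, a CCAAT box or an E-box. A match is a run of letters and not evidence of binding.

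Of the 8 measured genes, BCL2A1 and BCL2L1 were down-regulated, BIRC2 and BIRC5 were up-regulated, and BCL2, CFLAR, XIAP and MCL1 did not pass limma's test adjusted over all 18417 genes (Benjamini-Hochberg, threshold 0.05). Thus 4 of 8 passed, where 34.5% of all genes did, with 2 up-regulated (19.7% of all genes) and 2 down-regulated (14.8% of all genes). The median log2 fold change of the 8 genes was 0.03, against 0.00 over all genes. The genes did not move as a group: their log2 fold changes ran from -0.97 to 0.44. The 2 groups did not overlap in 5 of the 8 genes, 3 higher and 2 lower after treatment, where 47.6% of all genes do not overlap (25.6% higher and 22.0% lower). The arrays measure RNA of whole cultures, so that a change per cell and a change in the share of cells holding a transcript cannot be told apart.

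**Figure D1:**
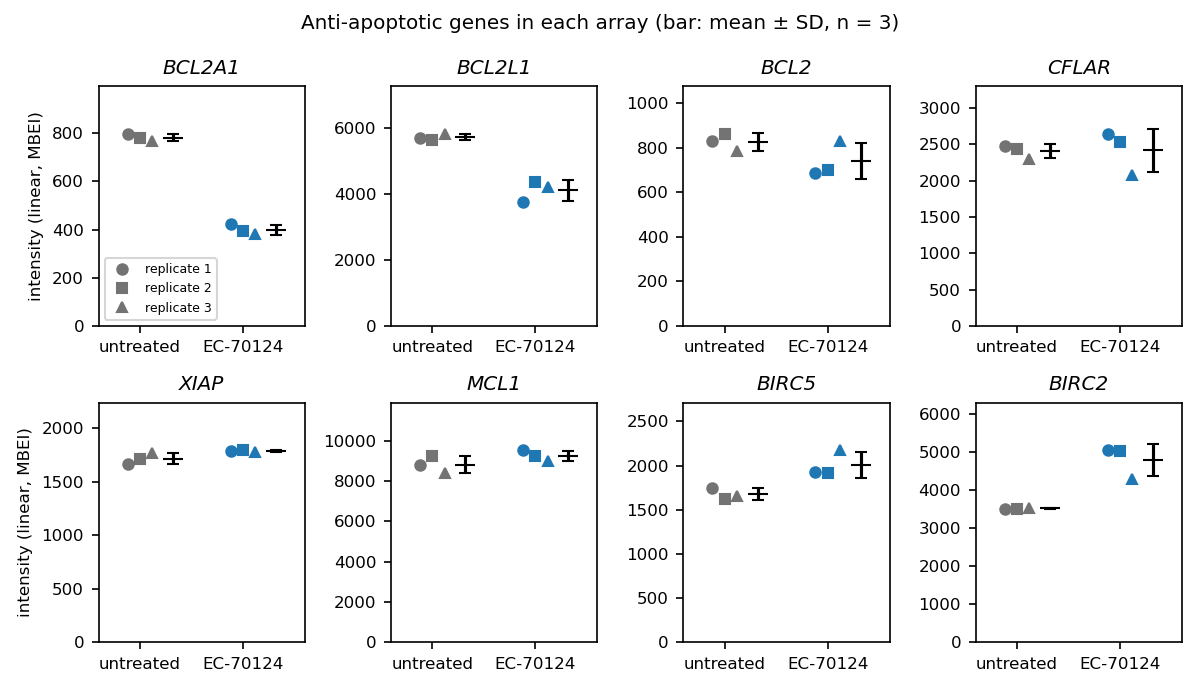
Intensity (y axis, linear, from 0) of the 8 measured anti-apoptotic genes in each array (x axis, untreated in gray and EC-70124 in blue, 3 arrays each, 1 symbol per replicate number); the black bar is the mean with its SD. The treated arrays lie below the untreated ones for BCL2A1 and BCL2L1 and above them for BIRC2, BIRC5 and, narrowly, XIAP.

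In the BCL2 family, BCL2A1 (probe set 7990818), which encodes BFL1, showed the largest change. It was measured at 797, 782 and 766 without the drug and at 422, 394 and 380 with it. Every treated array lay far below every untreated array, and the spread within each group was small beside the gap. The treated intensities lie within the range of the leukocyte and endothelial markers described below (79 to 731 over all arrays). Whether they are near background cannot be told, since no background was measured. The mean went from 782 ± 15.2 (SD, n = 3) to 399 ± 21.3 (SD, n = 3), a 1.96-fold fall (log2 fold change -0.97, standard error 0.06, adjusted p = 1.57e-05 from limma). BCL2L1 (probe set 8065569) encodes BCL-XL and, by splicing, the shorter pro-apoptotic BCL-XS, which a gene-level value does not separate. It was measured at 5712, 5625 and 5819 in untreated cells and at 3745, 4376 and 4199 in treated cells. The groups stood apart, and replicate 1 was the lowest of the treated arrays. The fall was 1.40-fold, with a log2 fold change of -0.48 (standard error 0.07, 95% interval -0.64 to -0.32, adjusted p = 0.000962 from limma). The call was lost in a per-gene test with unequal variances that shares no spread between genes (adjusted p = 0.0696).

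BCL2 itself (probe set 8023646), the founding member of the family, had intensities of 831, 861 and 783 in untreated cells and of 685, 699 and 831 in treated cells. Treated replicates 1 and 2 were below all untreated arrays, whereas replicate 3 was as high as untreated replicate 1. The log2 fold change was -0.16 (95% interval -0.36 to 0.03, adjusted p = 0.181 from limma). Without EC-70124 replicate 3 it was -0.25 and passed the test (adjusted p = 0.0150 from limma). MCL1 (probe set 7919751), a short-lived protein that binds BAK1, was measured at 8811, 9235 and 8397 in untreated cells and at 9515, 9228 and 9002 in treated cells. Its groups overlapped, and the log2 fold change was 0.07 with an interval of -0.07 to 0.21, that is from 0.955 to 1.15 of the untreated level (adjusted p = 0.417 from limma).

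Among the IAPs, BIRC2 (probe set 7943424), the ubiquitin ligase also called cIAP1, had nearly equal intensities of 3511, 3500 and 3526 in untreated cells. In treated cells they were 5034, 5025 and 4296. All treated arrays were higher, and replicate 3 was the lowest of them. The rise was 1.36-fold (log2 fold change 0.44, standard error 0.07, adjusted p = 0.00196 from limma), and the call was lost in the per-gene test with unequal variances (adjusted p = 0.0981). BIRC3, its neighbour on chromosome 11, was not analysed here, so that the pair cannot be compared. BIRC5 (probe set 8010260) went from 1751, 1620 and 1658 to 1927, 1920 and 2172, without overlap and with replicate 3 the highest of the treated arrays. Its rise of 1.20-fold was the smallest that passed (log2 fold change 0.26, standard error 0.07, adjusted p = 0.0192 from limma). A second, dimmer BIRC5 probe set (8018860) gave 298, 244 and 261 untreated and 319, 326 and 341 treated. That change was of similar size, with a log2 fold change of 0.30 and an adjusted p of 0.0485 from limma over all 33252 probe sets. Which strand and which transcripts this dimmer probe set reads were not tested, and its nearness to background is not known. The first BIRC5 probe set lost its call after quantile normalization (log2 fold change 0.18, adjusted p = 0.101 from limma) and without untreated replicate 2 (0.23, adjusted p = 0.0725 from limma) or untreated replicate 3 (0.25, adjusted p = 0.0581 from limma). In the per-gene test its adjusted p was 0.0986.

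XIAP (probe set 8169742), the direct caspase inhibitor, was at 1665, 1710 and 1766 in untreated cells and at 1788, 1792 and 1776 in treated cells. The treated arrays were all above the untreated ones, but the gap between the groups was smaller than the spread of the untreated arrays. Its log2 fold change was 0.06 (95% interval -0.06 to 0.18, adjusted p = 0.439 from limma), and after quantile normalization it was -0.03. In fold terms the interval of XIAP ran from 0.959 to 1.13.

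CFLAR was read by 2 probe sets that gave different answers. The brighter one (8047381) was at 2483, 2436 and 2304 in untreated cells and at 2645, 2530 and 2080 in treated cells. Treated replicates 1 and 2 lay above the untreated arrays and replicate 3 below them, with a log2 fold change of 0.00 (95% interval -0.22 to 0.21, adjusted p = 0.996 from limma). The dimmer one (8047401) was at 226, 249 and 204 untreated and at 380, 355 and 418 treated, with no overlap. Its log2 fold change of 0.76 (a 1.70-fold rise, standard error 0.10) had an adjusted p of 0.00257 from limma over all 33252 probe sets, of which 22.1% passed. The intensities of this probe set lie within the range of the leukocyte and endothelial markers described below (79 to 731 over all arrays). Since the scale differs between probe sets and no background was measured, whether they are near background cannot be told. Which CFLAR isoforms each probe set reads was not tested. Within an array, the log2 difference between the dimmer and the brighter probe set was -3.46, -3.29 and -3.50 in untreated cells. In treated cells it was -2.80, -2.83 and -2.32, higher in every array. The shift was 0.77, with p = 0.1 from an exact 2-sided permutation test over the 20 splits of the arrays, the smallest p that 3 against 3 arrays can give. The same difference for the BIRC5 probe sets shifted by 0.04 (exact p = 0.7).

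**Figure D2:**
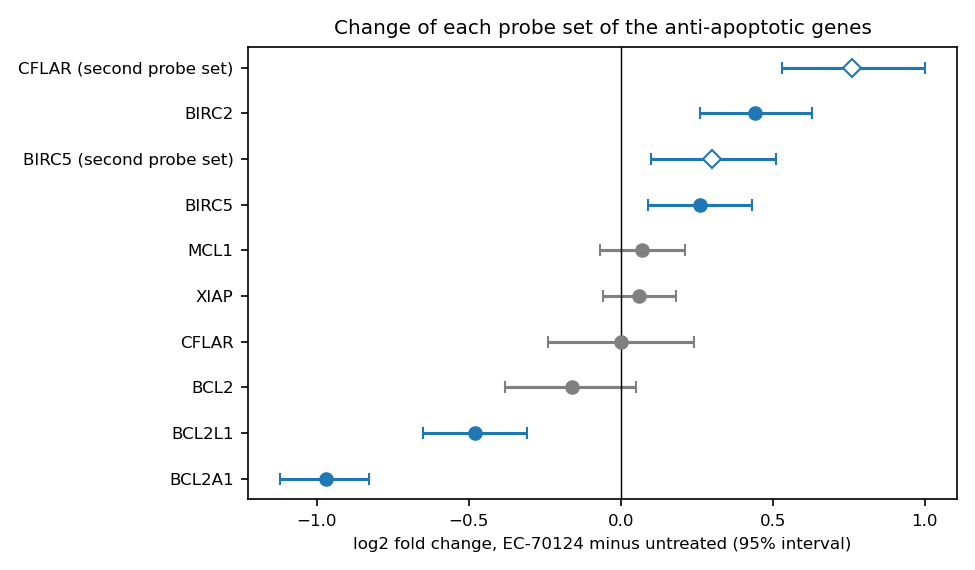
Log2 fold change (x axis, EC-70124 minus untreated, 3 arrays per group) with its 95% interval from limma over all probe sets, for each probe set of the 8 genes (y axis); filled circles are the probe sets used for a gene, open diamonds second probe sets, and blue marks an adjusted p under 0.05 over all probe sets. CFLAR is at 0.00 on the brighter probe set and at 0.76 on the dimmer one.

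Ordered by change, the genes ran from BCL2A1 through BCL2L1, BCL2, CFLAR, XIAP, MCL1 and BIRC5 to BIRC2. The 95% interval of BCL2A1 (-1.11 to -0.84) lay wholly below that of BCL2L1. Every other pair of neighbours in this order had overlapping intervals, among them BIRC5 (0.10 to 0.42) and BIRC2 (0.27 to 0.61). The intensities of BCL2A1 over the 6 arrays were most closely followed by those of GPR155, CREB3L2 and INSR. Likeness was the Euclidean distance of log2 values centred on each gene's mean over 6 arrays, which was 0.092, 0.105 and 0.109. GPR155 had a log2 fold change of -0.91, CREB3L2, an endoplasmic reticulum membrane transcription factor, of -0.99, and INSR, the insulin receptor, of -1.04. The choice by likeness itself sets these changes near that of BCL2A1.

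The partners of the anti-apoptotic proteins were taken from lists of known roles. Of 11 BH3-only and pore-forming genes, 2 rose and 1 fell (19.7% and 14.8% of all genes did), with a list median of 0.05. BID, which links death receptors to mitochondria, went from 2106, 2262 and 2195 to 1064, 1161 and 1418. The arrays did not overlap, and the log2 fold change was -0.86 (adjusted p = 0.00036 from limma). PMAIP1 (NOXA), the BH3-only partner of MCL1 and BFL1, rose from 2884, 3082 and 3130 to 4080, 4164 and 3867 (log2 fold change 0.41, adjusted p = 0.000986 from limma). The pore former BAX rose by 0.30 on the log2 scale, whereas BAK1, the other pore former, was at 0.00, with an adjusted p of 0.991 from limma. Of 9 further genes with BCL2 or BIR homology, 3 rose (19.7% of all genes did) and none fell: the BIR protein NAIP (0.53), BCL2L13 (0.41) and BCL2L12 (0.17, adjusted p = 0.0370 from limma). BIRC6, a giant BIR protein, was at -0.03 and did not pass. At an unadjusted p under 0.05 as well, no gene of this list had a fall.

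Further lists cover genes downstream and upstream of the IAPs and FLIP. Of 8 measured genes of the list of IAP antagonists, apoptosome and caspases, 1 fell (14.8% of all genes did) and the other 7 did not pass. It was APAF1, the apoptosome scaffold (log2 fold change -0.27, adjusted p = 0.0269 from limma). DIABLO (SMAC), the mitochondrial antagonist of XIAP, was at 0.15 (adjusted p = 0.0525 from limma). Of 9 measured death receptor signalling genes, 2 rose and 2 fell (19.7% and 14.8% of all genes did), and RIPK1 and TRAF2 of that list were not analysed here. TRAF1, an adaptor that binds cIAPs at TNF receptors, rose from 272, 268 and 282 to 591, 555 and 527 (log2 fold change 1.02, adjusted p = 1.52e-05 from limma). CASP8, the protease that FLIP competes with, rose by 0.32 (adjusted p = 0.00252 from limma). The receptors TNFRSF1A (-0.36) and TNFRSF10B (-0.21) fell.

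**Figure D3:**
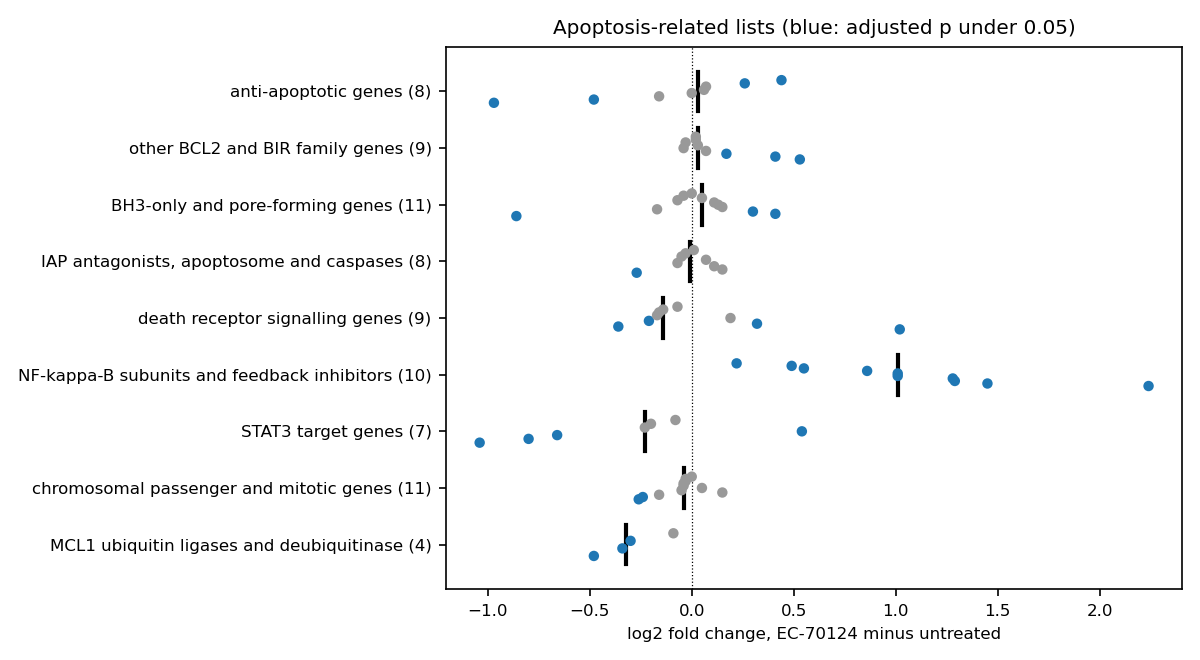
Log2 fold change (x axis, EC-70124 minus untreated, 3 arrays per group) of each measured gene of 9 lists (y axis, number of genes in parentheses); blue marks limma's adjusted p under 0.05 and the black bar is the median. All 10 NF-kappa-B genes lie to the right of 0 with a median of 1.01, whereas the anti-apoptotic genes lie on both sides.

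The lists of NF-kappa-B and STAT3 genes are given beside the members because several members are known targets of these factors. All 10 NF-kappa-B subunits and feedback inhibitors rose (19.7% of all genes did), with a median log2 fold change of 1.01. TNFAIP3, the ubiquitin-editing inhibitor of the pathway, rose by 2.24, and the I-kappa-B genes NFKBIE and NFKBIB by 1.45 and 1.29. RELB rose by 1.28, from 800, 787 and 776 to 1978, 1970 and 1795. The measured members among those named above as targets of the same factor did not share one direction. BCL2A1 was at -0.97, BCL2L1 at -0.48 and CFLAR at 0.00 or 0.76 by probe set, and BIRC3 had no value. BIRC2 (0.44) and XIAP (0.06) were not among those named. EC-70124 replicate 3 was the lowest treated array in 9 of these 10 genes and in 5 of the 8 members (BIRC2, BCL2A1, XIAP, MCL1 and the brighter CFLAR probe set), against 42.1% of all genes. Of 7 STAT3 target genes, 3 fell (14.8% of all genes did) and 1 rose (19.7%), with a median of -0.23. The kinase gene PIM1 fell by 1.04, the feedback inhibitor SOCS3 by 0.80 and the repressor BCL6 by 0.66 on the log2 scale, and JUNB rose by 0.54. Of the members named above as STAT3 targets, BCL2L1 was at -0.48, MCL1 at 0.07 and BIRC5 at 0.26.

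BIRC5 acts with mitotic proteins and MCL1 is set largely by its turnover, so that these partners were read as well. Of 11 chromosomal passenger and mitotic genes, none rose and 2 fell (14.8% of all genes did). They were CDK1 (-0.26) and AURKB (-0.24), the kinase of the complex that holds BIRC5. Its other subunits INCENP and CDCA8 were at -0.03 and -0.04 and did not pass. EC-70124 replicate 3, the highest treated array for BIRC5, was also the highest in 10 of these 11 genes, against 36.3% of all genes. Of 4 genes that set MCL1 stability, the ubiquitin ligase genes BTRC (-0.48) and FBXW7 (-0.34) and the deubiquitinase gene USP9X (-0.30) fell (14.8% of all genes did), and the ligase gene HUWE1 was at -0.09 (adjusted p = 0.283 from limma).

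Across all genes, 3631 were up-regulated and 2722 down-regulated, and after quantile normalization 3112 and 3527 were. With that normalization BCL2A1, BCL2L1 and BIRC2 kept their calls. Array medians were 437 to 444 untreated and 451 to 460.1 treated. The mesenchymal and basal markers of the cell line (VIM, CD44, MSN, CAV1, ANXA1, AXL and EGFR) had summed intensities of 74037 to 75692 untreated and 64046 to 65256 treated. Of these 7, MSN (-0.66), EGFR (-0.39), CD44 (-0.29) and AXL (-0.27) fell (14.8% of all genes did). Each of the 7 was at 5282 or more in every array, and the luminal and epithelial markers ESR1, PGR, CDH1, EPCAM and GATA3, which the line is known to hold at low levels, were at 149 to 745. KRT19 (2159 to 3879) and ERBB2 (1442 to 1566) are on the same list. Since the scale differs between probe sets and no background was measured, these values do not show which markers were present. On that list GATA3 (0.46) and CDH1 (0.19) rose and KRT19 (-0.49) fell (19.7% and 14.8% of all genes did). The part of these markers in the results was not tested. Leukocyte and endothelial markers summed to 2045 to 2216 untreated and 2151 to 2245 treated. None of the 7 measured passed, where 34.5% of all genes did (adjusted p = 0.101 from limma for the lowest, ITGAM, the 1 gene of the list with an unadjusted p under 0.05).

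**Figure D4:**
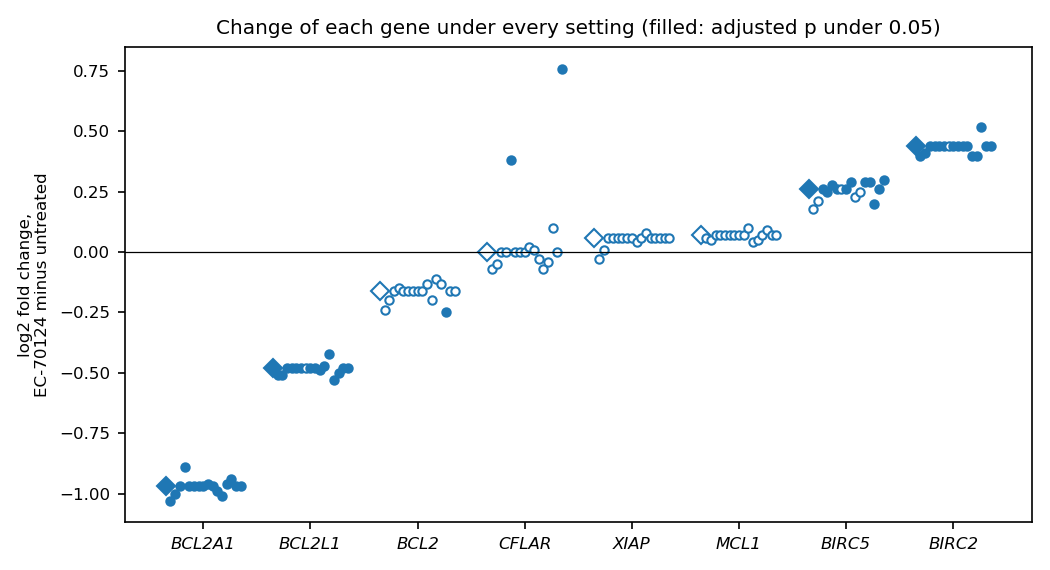
Log2 fold change (y axis, EC-70124 minus untreated) of each of the 8 genes (x axis) as reported (diamond) and under 16 other settings (circles); filled symbols have an adjusted p under 0.05. The BCL2A1 values run from -1.03 to -0.89 and are all filled, whereas CFLAR reaches 0.38 and 0.76 when its dimmer probe set enters.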

How the data were processed

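RNA of 3 untreated and 3 EC-70124 samples, called independent in the study's methods, was hybridised to Human Gene ST arrays. In dChip, the authors put all arrays on one scale by a rank invariant method and deposited linear intensities, 1 model-based index per probe set. The sources used here do not give its version, the background correction or any batch. The table holds no measure of background.

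Values under 1 were raised to 1 before log2. Of 33252 probe sets, 19460 carry 1 symbol, 1754 several and 12038 none in the platform annotation. Each gene was read from its single-symbol probe set with the highest mean log2 value. Groups were compared with lmFit and eBayes (limma 3.58.1, R 4.3.3), 2-sided, with Benjamini-Hochberg adjustment over 18417 genes. Precision is limited by the 6 arrays (median standard error 0.07). The script was tested on simulated data.

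All members were named, and of each other list the called genes that changed most (up to 4), or else the one of lowest p. Further genes were chosen after their values were seen: BAK1, BIRC6, DIABLO, INCENP, CDCA8 and HUWE1. Members, lists and tests were chosen with earlier results of these data known. Sequences are from RefSeq (GRCh38.p14).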

Additional observations from a re-analysis of the deposited data

How the results depend on the processing

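BCL2L2 and BIRC3 gave no value under any setting. Of the 16 settings run for each of the 8 measured genes, BCL2A1, MCL1 and XIAP kept their side of the threshold in all 16, and BCL2A1 ran from -1.03 to -0.89. XIAP and CFLAR, which did not pass, changed sign in some settings. A t-test with unequal variances for each gene, adjusted over all genes, called 1 member down and 0 up (1280 down and 1962 up of all genes), with BCL2L1 at -0.48 (adjusted p = 0.0696), BIRC2 at 0.44 (0.0981) and BIRC5 at 0.26 (0.0986). BIRC5 also lost its call after quantile normalization (0.18, adjusted p = 0.101 from limma) and cyclic loess (0.21, 0.0545), which left 1 member up. CFLAR passed at 0.38 with the median over probe sets and at 0.76 on its second probe set, an alternative added after the data were seen. The causes were not tested beyond what these settings change. Leaving out single replicates gave 1 to 2 members up and 2 to 3 down, and 2991 to 3888 genes up and 2133 to 2947 down. The log2 fold change then ran from -0.25 to -0.11 for BCL2, -0.53 to -0.42 for BCL2L1, 0.40 to 0.52 for BIRC2, 0.20 to 0.29 for BIRC5 and -0.07 to 0.10 for CFLAR. Deviations of same-numbered arrays from their group means had correlations close to none (r = 0.13, -0.02 and 0.14). Of the 6 arrays, 3 correlated best with their own number, where each had 3 arrays of the other group to match. The sources used here do not say whether arrays of the same number were run together, and these values cannot settle it. With the replicate block 2 members rose and 2 fell, and 3521 genes rose and 2662 fell.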
